A study of Mus musculus with 18 samples.

Results

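CD4+ T cells activated at a high dose of TGF-b with DMOG were compared with the same cells given vehicle. The comparison held 6 of the 18 RNA sequencing libraries of the series, 3 of cells given DMOG and 3 of cells given vehicle, and they were chosen by the treatment in their titles. DMOG (dimethyloxaloylglycine) was given at 1 mM. It is a cell-permeable analogue of 2-oxoglutarate that inhibits enzymes which use that molecule, the oxygen-sensing prolyl hydroxylases (PHD proteins) among them, and the labels do not name the vehicle. Both groups came from wildtype C57BL/6 mice with no deleted allele and no transgene named, and the labels give no age for the mice. In both groups naive splenic CD4+ T cells, sorted by flow cytometry, were stimulated in culture with antibodies to CD3 and CD28 in the presence of 2 ng/ml TGF-b and collected on day 4. The labels number the replicates of each group 1 to 3 without saying whether they came from separate mice or cultures, so the p-values measure only the spread between these samples, which may be technical. Another experiment of the series, with 12 libraries, compared cells that lacked all 3 PHD proteins through a Cre driven by the Cd4 gene in T cells (tKO) with Cre controls (WT). Its 2 tKO and 2 WT libraries at the same TGF-b dose are set beside the DMOG values near the end.

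PHD proteins use oxygen, iron and 2-oxoglutarate to hydroxylate the alpha subunits of HIF, the hypoxia-inducible transcription factor, and hydroxylated HIF is recognised by VHL and destroyed. When the hydroxylation stops, HIF builds up and turns on genes of glucose uptake, glycolysis, mitophagy and vascular signalling. Other enzymes of the same family hydroxylate collagen, demethylate histones or oxidise methylated DNA, and DMOG can reach these too. In naive CD4+ T cells TGF-b induces Foxp3, the transcription factor that defines regulatory T cells, while the factor T-bet (Tbx21) directs cells to the Th1 fate marked by interferon gamma.

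Values are FPKM, which divide a gene's sequenced fragments by its length and by the size of the library, and are listed in the order of replicates 1, 2 and 3. Fold changes are differences of log2(FPKM + 1), DMOG minus vehicle, ± SE, and understate changes of genes with low values. A gene is said to have risen or fallen when its Benjamini-Hochberg adjusted p in limma's moderated test, two-sided and adjusted over all 9884 genes tested, was under 0.05. The FPKM of a library summed to between 386268 and 443734, and absolute depth is unknown. Across genes, libraries of 1 group correlated at Pearson's r between 0.990 and 0.997, against 0.879 to 0.888 between DMOG and vehicle libraries. DMOG changed a large part of the transcriptome: 2735 genes (27.7%) rose and 3279 (33.2%) fell, which is 60.8% of the genes tested. By at least 1 log2 unit, 591 (5.98%) rose and 807 (8.16%) fell. The median fold change over all genes tested was -0.03, and counts for gene groups are read against these shares. Group counts cover the members whose FPKM averaged 1 or more across all 6 samples, and a gene that passes through 1 group alone had to differ. DMOG libraries lay entirely above the vehicle libraries for 30.3% of genes tested and entirely below for 35.4%.

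The cells kept the transcripts that define T cells, at lower levels. Of the 9 T cell marker genes measured, 8 fell and 0 rose, with a median fold change of -1.18, and their summed FPKM was 1137 to 1486 in DMOG libraries and 2496 to 2865 in vehicle libraries. Cd4, the coreceptor used for the sort, had 175, 103 and 96.2 FPKM in the DMOG libraries and 266, 276 and 258 in the vehicle libraries. All 3 DMOG values were lower, and the highest of them was in replicate 1. Cd3e, a signalling chain of the T cell receptor, had 78.5, 57.6 and 61.9 FPKM with DMOG and 169, 177 and 173 with vehicle (fold change -1.39 ± 0.12, adjusted p = 3.27e-08). The surface glycoprotein gene Thy1 had 149, 112 and 108 FPKM with DMOG and 392, 413 and 394 with vehicle (-1.71 ± 0.12, adjusted p = 2.89e-09). The groups did not overlap for either gene. The marker that was not called was Cd247, named here after its values were seen, with 117, 85.6 and 87.8 FPKM in DMOG and 98.9, 106 and 102 in vehicle libraries. In bulk RNA, fewer cells of a type and less RNA per cell cannot be told apart, here and in every result that follows.

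Of 10 genes of the oxygen-sensing pathway itself 7 were tested, 4 rose and 1 fell. Egln3 (chromosome 12, 55279003 to 55304867, mm9), which encodes PHD3 and is itself a HIF target, had 338, 306 and 319 FPKM in the DMOG libraries and 6.97, 4.79 and 5.46 in the vehicle libraries. The libraries of each group lay close together and the DMOG values were far above the vehicle values. Egln1, which encodes PHD2, had 63.5, 49.8 and 57.3 FPKM with DMOG and 19.3, 16.0 and 15.4 with vehicle. Hif1a, the oxygen-regulated subunit of HIF, had 42.8, 38.0 and 42.3 FPKM with DMOG and 21.8, 21.7 and 24.4 with vehicle. Both groups stood fully apart for these 3 genes, with DMOG higher, and the fold changes were 5.59 ± 0.12, 1.69 ± 0.12 and 0.83 ± 0.11 (adjusted p = 6.70e-16, 2.94e-09 and 5.15e-06). Egln2, which encodes PHD1, gave 12.7, 12.1 and 13.0 FPKM with DMOG and 15.8, 13.6 and 14.1 with vehicle. Its DMOG values were all lower by a small margin, and the difference did not pass (-0.19 ± 0.11, adjusted p = 0.148). Arnt, the partner subunit of HIF, had 7.86, 7.85 and 8.90 FPKM with DMOG and 11.3, 9.50 and 11.2 with vehicle (-0.34 ± 0.11, adjusted p = 0.0146), and its call was lost without vehicle replicate 1 (adjusted p = 0.0602) or vehicle replicate 3 (adjusted p = 0.0754). Taking only the most abundant entry of Arnt, its fold change was -0.01. Vhl had 22.5, 19.5 and 21.0 FPKM with DMOG and 17.5, 16.5 and 15.5 with vehicle (0.33 ± 0.11, adjusted p = 0.0148), and this call was lost without vehicle replicate 3 (adjusted p = 0.0820). Epas1, which encodes the other main HIF alpha subunit, had 0.202, 0.0691 and 0.0928 FPKM with DMOG and 0.232, 0.239 and 0.275 with vehicle and was not tested.

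HIF binds DNA at the core letters ACGTG or GCGTG. Promoters are shown for the 6 genes that rose most in the lists of the HIF pathway core, mitochondrial HIF targets and secreted HIF targets, among those with a window in the RefSeq table. Each window has 300 bases around the gene's start, most of them upstream, in the build GRCm38.p6, which is newer than the mm9 build of the expression files, and is written 5′ to 3′ on the gene's strand. Capitals mark every ACGTG or GCGTG and every reverse complement, CACGT or CACGC, so both strands were searched. The windows are chr12:54203825-54204124 (minus strand) for Egln3, chr9:69453433-69453732 (plus strand) for Anxa2 and chr3:51396498-51396797 (minus strand) for Mgarp. Those of the other 3 genes are chr7:138909457-138909756 (minus strand) for Bnip3, chr7:110627407-110627706 (plus strand) for Adm and chr11:31370012-31370311 (minus strand) for Stc2.
Egln3: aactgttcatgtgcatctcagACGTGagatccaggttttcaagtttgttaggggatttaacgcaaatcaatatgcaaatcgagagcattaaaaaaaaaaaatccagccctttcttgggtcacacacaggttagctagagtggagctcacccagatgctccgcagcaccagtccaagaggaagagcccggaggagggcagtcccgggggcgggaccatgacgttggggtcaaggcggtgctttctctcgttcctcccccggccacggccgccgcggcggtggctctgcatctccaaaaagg
Anxa2: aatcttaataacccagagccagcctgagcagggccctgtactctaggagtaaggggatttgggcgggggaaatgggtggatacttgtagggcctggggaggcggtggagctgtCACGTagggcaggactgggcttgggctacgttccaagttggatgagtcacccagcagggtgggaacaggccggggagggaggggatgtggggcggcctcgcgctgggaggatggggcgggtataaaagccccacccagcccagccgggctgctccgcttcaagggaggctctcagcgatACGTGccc
Mgarp: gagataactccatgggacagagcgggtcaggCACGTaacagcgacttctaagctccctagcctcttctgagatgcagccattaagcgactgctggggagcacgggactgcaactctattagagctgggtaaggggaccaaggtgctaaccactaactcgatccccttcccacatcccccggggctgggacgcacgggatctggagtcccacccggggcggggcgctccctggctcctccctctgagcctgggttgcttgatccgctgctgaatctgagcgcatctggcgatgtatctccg
Bnip3: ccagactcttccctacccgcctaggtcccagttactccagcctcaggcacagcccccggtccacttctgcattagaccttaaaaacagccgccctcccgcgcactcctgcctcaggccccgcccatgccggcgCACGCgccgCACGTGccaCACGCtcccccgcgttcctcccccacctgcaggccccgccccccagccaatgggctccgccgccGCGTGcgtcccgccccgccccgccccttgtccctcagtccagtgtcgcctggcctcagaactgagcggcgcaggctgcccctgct
Adm: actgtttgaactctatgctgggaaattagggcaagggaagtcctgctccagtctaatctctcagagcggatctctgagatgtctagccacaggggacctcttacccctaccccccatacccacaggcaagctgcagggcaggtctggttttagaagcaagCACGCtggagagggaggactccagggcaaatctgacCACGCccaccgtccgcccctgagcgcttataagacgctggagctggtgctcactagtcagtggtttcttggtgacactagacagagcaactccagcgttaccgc
Stc2: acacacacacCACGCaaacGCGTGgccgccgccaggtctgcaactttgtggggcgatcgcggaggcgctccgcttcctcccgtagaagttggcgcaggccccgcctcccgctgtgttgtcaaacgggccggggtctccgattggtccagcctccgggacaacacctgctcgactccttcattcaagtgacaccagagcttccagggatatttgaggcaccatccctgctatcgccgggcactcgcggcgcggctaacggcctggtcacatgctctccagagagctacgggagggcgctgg
Bnip3 held 5 matches, 2 of which overlap as CACGTG. Anxa2, Adm and Stc2 held 2 each, and Egln3 and Mgarp held 1 each. Among the 7531 tested genes with a window 66.2% held at least 1 match, and 43.8% of all 27025 windows did. By at least 1 log2 unit, 436 genes with a window rose and 619 fell, and 64.2% and 55.7% of these held a match. Of the 17 genes with a window that rose in these HIF lists, 14 (82.4%) held 1, and whether this share differs from the others was not tested. A match in a window of this length is thus common. A match describes the letters only and does not show that HIF bound there.

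Every tested gene of lower glycolysis rose, and most of upper glycolysis did. Of 8 tested lower glycolysis genes 8 rose and 0 fell, each by more than 1 log2 unit, with a median of 2.60. Pgk1 (phosphoglycerate kinase) had 2298, 2647 and 2531 FPKM in the DMOG libraries and 269, 286 and 316 in the vehicle libraries. All DMOG values were far above all vehicle values, and the fold change was 3.10 ± 0.11 (adjusted p = 1.68e-13). The triosephosphate isomerase gene Tpi1 had 967, 1083 and 984 FPKM with DMOG and 141, 131 and 134 with vehicle (2.89 ± 0.10). Gapdh, one of the most abundant transcripts, had 4469, 4734 and 4509.6 FPKM with DMOG and 1139, 968 and 1070.4 with vehicle (2.11 ± 0.10). Fold changes of the other 5, Aldoa, Aldoc, Pgam1, Eno1 and Pkm, lay between 2.08 and 2.85. Eno2 had 0.853, 0.603 and 0.655 FPKM with DMOG and 0.645, 0.886 and 0.923 with vehicle and was not tested.

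In glucose uptake and upper glycolysis 8 of 10 genes rose and 0 fell (median 1.98). Hk2, the inducible hexokinase that traps glucose in the cell, had 60.1, 52.6 and 63.8 FPKM with DMOG and 2.00, 2.38 and 2.38 with vehicle. Its vehicle values were low and even, and the fold change was 4.20 ± 0.11 (adjusted p = 6.47e-15). The glucose transporter gene Slc2a3 had 264, 141 and 136 FPKM with DMOG and 10.6, 11.3 and 10.2 with vehicle, and Slc2a1 had 350.0, 206 and 200.4 FPKM with DMOG and 32.2, 43.0 and 33.4 with vehicle. Both transporters were highest in DMOG replicate 1, and both groups stood apart (3.88 ± 0.18 and 2.73 ± 0.18). The phosphofructokinase genes Pfkp (2.73 ± 0.11) and Pfkl (2.16 ± 0.11) rose, while the muscle form Pfkm had 5.34, 5.91 and 6.08 FPKM with DMOG and 4.67, 4.91 and 5.22 with vehicle and did not pass (adjusted p = 0.123). Pfkfb3, whose product makes the activator of phosphofructokinase, rose by 1.40 ± 0.13, but with its most abundant entry alone the fold change was 0.10 (adjusted p = 0.469).

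Among 12 tested genes of pyruvate fate and lactate export 6 rose, 3 fell and 3 did not pass. Ldha, the lactate dehydrogenase of lactate production, had 2673, 3052 and 3005 FPKM with DMOG and 682, 702 and 765 with vehicle (2.02 ± 0.10, adjusted p = 2.74e-11). The lactate exporter gene Slc16a3 had 469, 285 and 271 FPKM with DMOG and 49.4, 55.6 and 45.4 with vehicle (2.70 ± 0.17), and its chaperone Bsg rose by 1.16 ± 0.15. All DMOG values of these 3 genes were above all vehicle values. Pdk1, a kinase that shuts pyruvate dehydrogenase and a known HIF target, rose by 0.84 ± 0.11. Its paralog Pdk2 fell, with 1.37, 1.26 and 1.38 FPKM with DMOG and 8.50, 7.16 and 7.09 with vehicle (-1.87 ± 0.11, adjusted p = 8.49e-11).

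Of 10 mitophagy and mitochondrial HIF target genes 8 were tested, and 6 were higher and 2 lower (median 2.19). Bnip3, a receptor that marks mitochondria for removal, had 158, 176 and 171 FPKM with DMOG and 8.77, 7.94 and 8.81 with vehicle (4.15 ± 0.11, adjusted p = 3.60e-15). Mgarp, a mitochondrial protein, had 25.4, 21.1 and 21.1 FPKM with DMOG and 0.307, 0.254 and 0.245 with vehicle (4.21 ± 0.11). Both genes were tightly grouped within each treatment, and their groups were far apart. Mxi1, a repressor that opposes Myc, rose by 2.66 ± 0.11, Fam162a by 2.44 ± 0.11 and Higd1a by 1.94 ± 0.11. Pink1, the kinase that starts the other main mitophagy route, fell by 1.20 ± 0.11 and had 9.42, 9.10 and 9.37 FPKM with DMOG and 25.5, 21.8 and 20.9 with vehicle. Cox4i2, the hypoxia form of a cytochrome oxidase subunit, was listed at 0 in all vehicle libraries and had 0.926, 0.800 and 1.23 FPKM with DMOG, too low to be tested.

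Of 21 secreted and signalling HIF targets, 16 could be tested, 13 rose and 3 fell (median 2.30). Anxa2, which encodes the membrane-binding protein annexin A2, had 576, 555 and 517 FPKM with DMOG and 27.1, 24.4 and 25.3 with vehicle (4.37 ± 0.11, adjusted p = 1.81e-15). Adm, which encodes the vasodilator peptide adrenomedullin, had 26.0, 12.1 and 12.0 FPKM with DMOG and 0.117, 0.0618 and 0.0902 with vehicle. Stc2, a secreted glycoprotein gene, had 17.6, 13.4 and 11.8 FPKM with DMOG and 0.135, 0.127 and 0.0810 with vehicle. The vehicle values of Adm and Stc2 were near 0 in every library, the DMOG values were not, and both were highest in DMOG replicate 1. Their fold changes were 3.93 ± 0.20 and 3.76 ± 0.12, with 3.70 ± 0.10 for the mitochondrial adenylate kinase gene Ak4 and 3.37 ± 0.14 for Ankrd37. Adm, Stc2 and Ak4 were tested through their DMOG values alone and could not have come out lower. The 3 that fell, named after their values were seen, were Angptl4, an inhibitor of lipoprotein lipase (-0.93 ± 0.13), the carbonic anhydrase gene Car12 (-0.50 ± 0.12) and the lipid droplet gene Plin2 (-1.37 ± 0.11). Egln3 is counted in this list and in the HIF core list.

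Collagen hydroxylases, which use 2-oxoglutarate and are HIF targets as well, and oxidative folding genes gave 6 higher, 3 lower and 3 not called of 12 tested, with 1 lower without vehicle replicate 2. P4ha2, a collagen prolyl hydroxylase gene, had 34.4, 17.5 and 18.8 FPKM with DMOG and 0.213, 0.275 and 0.228 with vehicle (4.25 ± 0.18, adjusted p = 1.62e-12). P4ha1 rose by 2.14 ± 0.15, and the lysyl hydroxylase genes Plod2 and Plod3 by 1.81 ± 0.17 and 1.44 ± 0.16. The third lysyl hydroxylase, Plod1, fell, with 4.49, 2.55 and 2.48 FPKM with DMOG and 8.27, 10.5 and 8.00 with vehicle (-1.28 ± 0.16). Ero1l, the oxidase that drives disulphide formation in the endoplasmic reticulum, had 226, 138 and 143 FPKM with DMOG and 13.3, 14.3 and 13.8 with vehicle (3.49 ± 0.15). In all 12 of these genes DMOG replicate 1 was higher than the mean of the other 2 DMOG libraries.

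**Figure D1:**
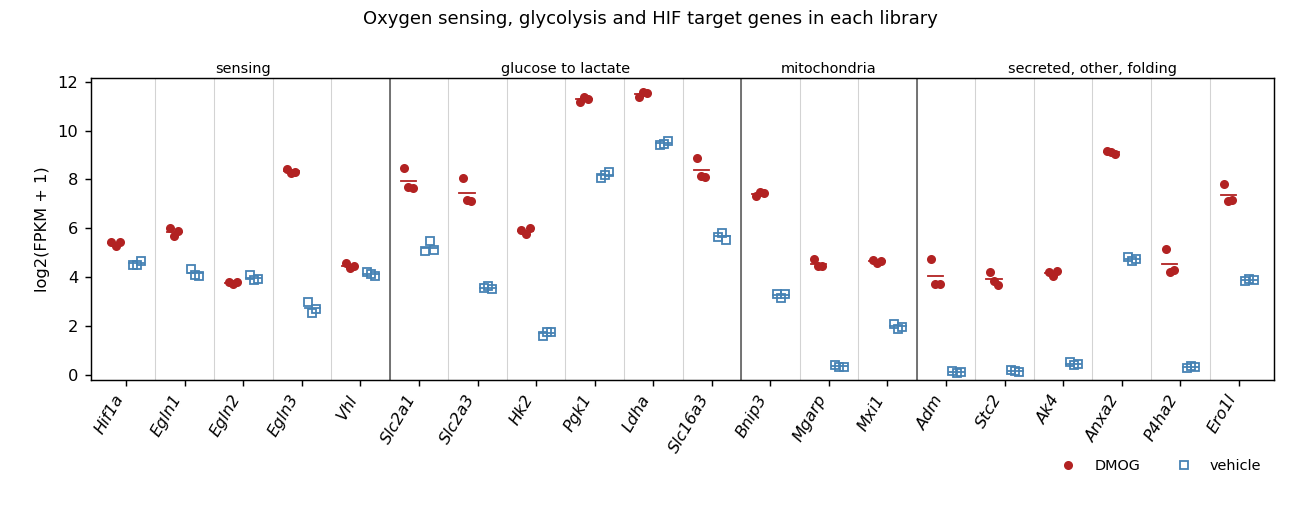
Level of oxygen-sensing, glycolysis and HIF target genes as log2(FPKM + 1) on the y axis, with 1 point per library, DMOG as filled circles left of vehicle as open squares, and a bar at each group's mean. For every gene shown except Egln2, whose difference did not pass the test, all 3 DMOG points lie above all 3 vehicle points, and the widest gap is that of Egln3.

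Genes of the other enzymes that use 2-oxoglutarate did not share 1 direction. Among 17 tested JmjC demethylase and TET genes 4 rose, 8 fell and 5 did not pass (median -0.28), and the count of falls was 5 without vehicle replicate 3 or without DMOG replicate 2. Kdm3a, a histone demethylase gene known as a HIF target, had 31.7, 26.0 and 33.1 FPKM with DMOG and 14.0, 14.6 and 16.7 with vehicle (0.96 ± 0.12, adjusted p = 2.81e-06), and Jmjd6 rose by 1.46 ± 0.11. Tet3, an enzyme that oxidises methylcytosine, had 4.21, 2.51 and 3.99 FPKM with DMOG and 12.3, 11.1 and 12.6 with vehicle (-1.53 ± 0.14, adjusted p = 4.27e-08). The DMOG values of Tet3 were all lower, as were those of the demethylase genes Jhdm1d (-1.40 ± 0.11) and Kdm4a (-0.82 ± 0.12) and of Tet2 (-0.57 ± 0.11). Of 9 other dioxygenase genes 2 rose and 2 fell. Alkbh5, an RNA demethylase gene, rose by 1.17 ± 0.12, and Phyh, which acts on phytanic acid in peroxisomes, fell by 0.97 ± 0.11. Fto, the other RNA demethylase, had 12.7, 13.1 and 14.7 FPKM with DMOG and 16.0, 13.8 and 16.0 with vehicle and did not pass (adjusted p = 0.206).

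The tricarboxylic acid cycle moved little as a group, with 4 of 22 genes higher, 4 lower and 14 not called (median -0.03), and with median scaling 7 were higher. Pcx, the pyruvate carboxylase gene that refills the cycle, was the exception by size, with 15.0, 11.1 and 12.6 FPKM with DMOG and 2.53, 2.88 and 2.85 with vehicle (1.88 ± 0.12, adjusted p = 4.08e-10). Idh1, an isocitrate dehydrogenase that makes 2-oxoglutarate in the cytosol, had 3.34, 3.31 and 3.37 FPKM with DMOG and 5.29, 5.04 and 5.92 with vehicle (-0.56 ± 0.10). In the supply of glutamine and 2-oxoglutarate 5 of 11 genes rose and 2 fell. Gls2, a glutaminase gene, had 10.6, 9.81 and 9.47 FPKM with DMOG and 0.515, 0.601 and 0.447 with vehicle (2.85 ± 0.10, adjusted p = 2.30e-13), and was low in each vehicle library. The glutamine transporter gene Slc1a5 fell, with 46.7, 29.5 and 28.5 FPKM with DMOG and 90.0, 108 and 96.5 with vehicle (-1.50 ± 0.15). Of 35 respiratory chain and ATP synthase genes 14 rose, 4 fell and 17 did not pass, none by 1 log2 unit, led by Uqcrfs1 (0.91 ± 0.11) upward and Ndufa4 (-0.62 ± 0.13) downward. With quantile normalization this count was 9 higher and 8 lower.

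Foxp3 and several surface genes of regulatory T cells fell with DMOG. Foxp3 (chromosome X, 7134467 to 7182546, mm9) had 7.21, 8.84 and 10.9 FPKM in the DMOG libraries and 91.0, 61.6 and 84.0 in the vehicle libraries. Every DMOG value was far below every vehicle value, and the fold change was -3.00 ± 0.15 (adjusted p = 2.27e-11). Itgae, which encodes the CD103 integrin chain that TGF-b induces, had 8.44, 5.43 and 5.34 FPKM with DMOG and 71.6, 102 and 90.6 with vehicle (-3.60 ± 0.16, adjusted p = 2.75e-12). Nt5e, which encodes CD73, an enzyme that makes adenosine, had 54.4, 38.8 and 47.1 FPKM with DMOG and 307, 443 and 402 with vehicle (-3.01 ± 0.14). The surface receptor gene Nrp1 had 12.2, 6.95 and 8.32 FPKM with DMOG and 52.1, 62.5 and 55.5 with vehicle (-2.54 ± 0.15), and Lrrc32, which holds latent TGF-b on the cell surface, fell by 2.12 ± 0.13. The groups stood apart for all 5 of these genes.

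As a list, the regulatory T cell genes split: of 20 tested, 9 rose, 10 fell and 1 did not pass, and 7 of the falls but 2 of the rises reached 1 log2 unit. Il10, an anti-inflammatory cytokine gene, had 3.86, 2.49 and 1.78 FPKM with DMOG and 0.0206, 0.0218 and 0.0477 with vehicle (1.81 ± 0.15, adjusted p = 1.09e-08). Entpd1, which encodes CD39 and supplies CD73 with its substrate, rose by 0.78 ± 0.12. The costimulatory receptor gene Tnfrsf9 had 753, 506 and 515 FPKM with DMOG and 160.1, 244 and 201 with vehicle (1.54 ± 0.16), and it also rises with T cell activation in general.

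Genes of TGF-b signalling fell more often than they rose. Of 21 tested, 4 rose, 10 fell and 7 did not pass (median -0.27), and 8 of the falls reached 1 log2 unit. Tgfbr1 and Tgfbr2 encode the signalling chains of the TGF-b receptor. Tgfbr1 had 34.6, 22.3 and 25.7 FPKM with DMOG and 87.5, 118 and 105 with vehicle (-1.88 ± 0.15, adjusted p = 8.01e-09), and Tgfbr2 had 29.3, 16.3 and 19.8 FPKM with DMOG and 88.2, 93.9 and 89.0 with vehicle (-2.04 ± 0.16, adjusted p = 5.18e-09). Sox4, a transcription factor gene induced by TGF-b in T cells, had 0.566, 0.537 and 0.707 FPKM with DMOG and 42.9, 51.7 and 50.0 with vehicle. Sox4 was low in every DMOG library and high in every vehicle library (-4.94 ± 0.11, adjusted p = 7.70e-16). Ldlrad4, an inhibitor of SMAD signalling, fell by 1.63 ± 0.12, and the transcriptional regulator gene Id3 fell by 2.18 ± 0.13. The ligand gene Tgfb1 had 169.7, 112 and 121 FPKM with DMOG and 141, 126 and 111 with vehicle, and its groups overlapped (0.07 ± 0.14, adjusted p = 0.676).

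Most Th1 genes rose with DMOG. Of 16 tested, 13 rose and 3 fell, and 12 of the rises reached 1 log2 unit (median 2.48). Tbx21 (chromosome 11, 96959321 to 96976645, mm9) had 53.5, 53.5 and 57.0 FPKM in the DMOG libraries and 0.201, 0.145 and 0.0895 in the vehicle libraries. Ifng, the interferon gamma gene, had 44.5, 43.5 and 34.9 FPKM with DMOG and 0.134, 0.118 and 0.0688 with vehicle. Vehicle libraries were near 0 for both genes, DMOG libraries were all well above, and the fold changes were 5.60 ± 0.10 and 5.24 ± 0.11 (adjusted p = 5.94e-17 and 5.99e-16). Il12rb2, the receptor chain through which IL-12 promotes the Th1 fate, had 49.2, 25.1 and 28.7 FPKM with DMOG and 0.484, 0.203 and 0.211 with vehicle (4.71 ± 0.18). Tbx21, Ifng and Il12rb2 were tested through their DMOG values alone and could not have come out lower. Il2, the T cell growth factor gene, had 42.7, 24.1 and 27.6 FPKM with DMOG and 1.37, 2.42 and 1.72 with vehicle (3.49 ± 0.17), and was highest in DMOG replicate 1. The chemokine genes Ccl3 and Ccl4 rose as well. Ccl3 had 301, 246 and 265 FPKM with DMOG and 2.86, 2.84 and 2.92 with vehicle (6.13 ± 0.11), and Ccl4 had 310.5, 276 and 308 FPKM with DMOG and 20.5, 24.7 and 23.0 with vehicle (3.66 ± 0.11). The 3 that fell, named after their values were seen, are receptors: Cxcr3 (-2.19 ± 0.14), Il18r1 (-2.65 ± 0.13) and Il18rap (-0.72 ± 0.11).

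Cytokine genes of the Th2 and Th9 fates rose too, while Gata3 fell slightly. Il9 (chromosome 13, 56580638 to 56583607, mm9) had the largest rise of all genes tested, with 826, 598 and 583 FPKM in the DMOG libraries and 0.302, 0.371 and 0.387 in the vehicle libraries (8.93 ± 0.13, adjusted p = 7.54e-18). Il3 had 122, 94.1 and 98.6 FPKM with DMOG and 0.127, 0.234 and 0.0978 with vehicle (6.51 ± 0.12), and Csf2, the gene of the myeloid growth factor GM-CSF, had 56.8, 40.1 and 43.1 FPKM with DMOG and 0.261, 0.248 and 0.402 with vehicle (5.18 ± 0.13). All 3 cytokine genes were near 0 in every vehicle library. Il13 had 19.6, 9.55 and 10.7 FPKM with DMOG and 0.0223, 0 and 0 with vehicle, 2 of them listed at 0, so its fold change (3.76 ± 0.18) is uncertain. Il4 and Il24 were listed at 0 in all vehicle libraries, where a 0 can be a failed estimate, and had 2.41, 1.76 and 2.21 and 7.90, 5.61 and 4.54 FPKM with DMOG. Irf4, a transcription factor gene needed for several effector fates, had 258, 209.9 and 247 FPKM with DMOG and 40.8, 38.2 and 40.1 with vehicle (2.55 ± 0.11, adjusted p = 3.27e-12). Of the list's 16 genes 12 were tested, 9 rose and 2 fell, which were Gata3, the factor that defines Th2 cells, and Maf, named after its values were seen (-2.52 ± 0.13). Il9, Il3, Csf2, Il13, Il4 and Il24 averaged under 1 FPKM with vehicle and were tested through their DMOG values alone. These could not have come out lower, so the count of rises says little about the list. Gata3 had 10.5, 7.23 and 9.55 FPKM with DMOG and 14.0, 11.2 and 11.8 with vehicle (-0.41 ± 0.13, adjusted p = 0.0129), and its call was lost without vehicle replicate 1 (adjusted p = 0.0802) or DMOG replicate 2 (adjusted p = 0.0662).

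Among 8 tested of 13 Th17 genes 3 rose and 4 fell (6 rose with no filter on low values), and the 4 falls all exceeded 1 log2 unit. Il17f had 43.2, 33.3 and 41.9 FPKM with DMOG and 95.0, 202 and 150.2 with vehicle (-1.83 ± 0.19, adjusted p = 3.45e-07), and Il17a had 1.41, 1.15 and 1.44 FPKM with DMOG and 3.27, 9.52 and 5.67 with vehicle (-1.52 ± 0.21). Vehicle replicates differed more than DMOG replicates for both cytokines, yet the groups did not overlap. Ccr6, a chemokine receptor gene of Th17 cells, had 21.3, 12.2 and 15.0 FPKM with DMOG and 162, 225 and 193 with vehicle (-3.52 ± 0.16). Stat3, the signal transducer that leads to Th17 cells, rose by 1.35 ± 0.11, and Rora by 0.55 ± 0.13.

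Genes of follicular helper T cells had a median of -1.97, with 6 of 9 tested lower and 1 higher (2 higher without DMOG replicate 2). Cxcr5 (chromosome 9, 44297747 to 44334672, mm9), the receptor that takes T cells into B cell follicles, had 0.289, 0.182 and 0.127 FPKM with DMOG and 41.0, 53.7 and 41.7 with vehicle. It had the largest fall of all genes tested (-5.27 ± 0.12, adjusted p = 8.32e-16). Bcl6, the factor that defines this fate, had 1.58, 0.973 and 1.57 FPKM with DMOG and 17.9, 16.2 and 15.1 with vehicle (-2.88 ± 0.12). Pou2af1 had 0.342, 0.309 and 0.374 FPKM with DMOG and 28.3, 28.1 and 29.6 with vehicle (-4.47 ± 0.10), and Slamf6 fell by 3.27 ± 0.12. Pdcd1, which encodes the inhibitory receptor PD-1, had 81.9, 63.0 and 64.7 FPKM with DMOG and 239, 328 and 267 with vehicle (-1.97 ± 0.13). Cd200 was the gene that rose (1.06 ± 0.13).

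**Figure D2:**
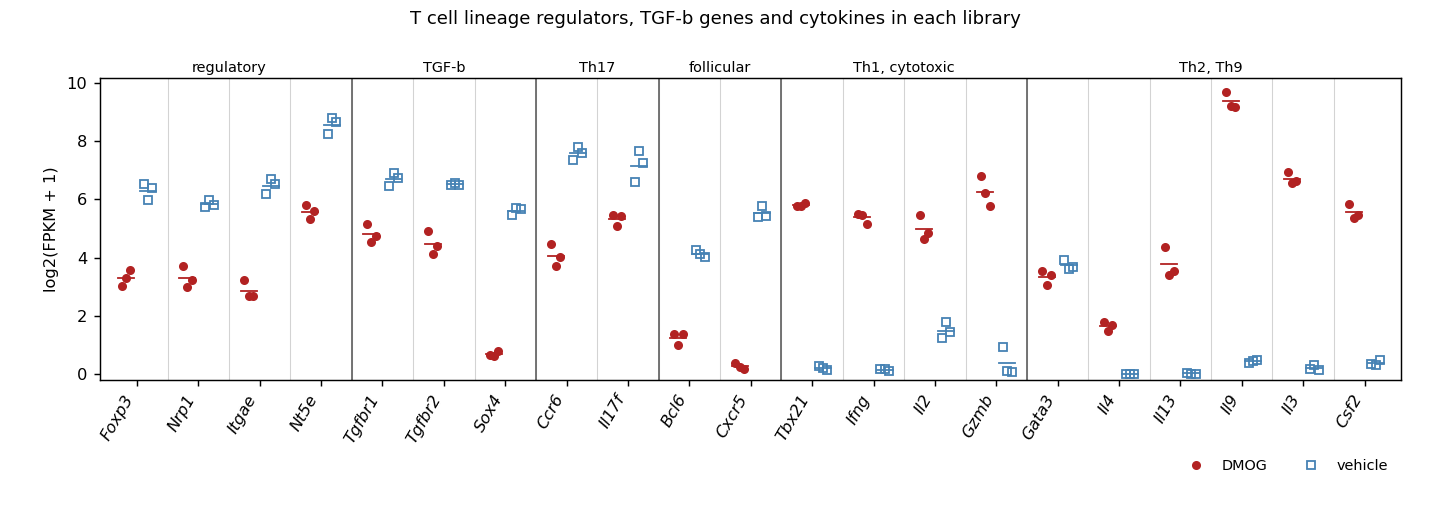
Level of T cell lineage, TGF-b and cytokine genes as log2(FPKM + 1) on the y axis, with 1 point per library, DMOG as filled circles left of vehicle as open squares, and a bar at each group's mean. DMOG points are the lower ones in the regulatory, TGF-b, Th17 and follicular panels and for Gata3, and the higher ones for every other gene of the last 2 panels.

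Cytotoxic genes divided between 5 that rose and 4 that fell of 10 tested, and 8 rose with no filter on low values. Gzmb, the main killing protease, had 111, 73.9 and 53.8 FPKM with DMOG and 0.913, 0.0803 and 0.0440 with vehicle (5.90 ± 0.23, adjusted p = 5.60e-13), and vehicle replicate 1 held most of the vehicle signal. Gzmc rose by 2.60 ± 0.15 but belongs to a cluster of near-identical granzyme genes and is uncertain. Prf1, which encodes the pore protein perforin, had 0.526, 0.437 and 0.758 FPKM with DMOG and 2.06, 2.80 and 2.55 with vehicle (-1.14 ± 0.11), and the cathepsin gene Ctsw fell by 1.95 ± 0.14. Perforin fell while granzyme B rose.

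Genes of naive, recirculating T cells fell in 11 of 14 cases and rose in 1 (median -1.13). Klf2, the factor that drives S1pr1, had 5.11, 5.14 and 7.79 FPKM with DMOG and 99.9, 70.2 and 81.5 with vehicle (-3.60 ± 0.15, adjusted p = 1.83e-12), and S1pr1, the receptor for leaving lymph nodes, had 10.9, 6.21 and 7.70 FPKM with DMOG and 64.9, 68.3 and 66.6 with vehicle (-2.90 ± 0.15). Tcf7, which encodes the naive and memory factor TCF-1, fell by 1.81 ± 0.14. All 3 were lower in every DMOG library. The gene that rose was Ly6c1, with 12.7, 11.2 and 12.8 FPKM with DMOG and 0.811, 0.717 and 0.810 with vehicle (2.89 ± 0.10), a member of a family of similar genes.

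Surface receptors split by gene. Of 11 checkpoint receptor genes 2 rose and 6 fell (median -0.71). Cd160 had 0.545, 0.621 and 0.567 FPKM with DMOG and 15.8, 23.8 and 20.3 with vehicle (-3.72 ± 0.13, adjusted p = 1.53e-13), and 4632428N05Rik, the inhibitory receptor gene also called Vsir, had 12.7, 8.54 and 9.30 FPKM with DMOG and 86.6, 104 and 92.4 with vehicle (-3.11 ± 0.13). Tnfrsf14, a receptor that binds CD160, fell by 1.02 ± 0.13. In the TNF receptor family 6 of 13 rose and 4 fell. Cd70 rose, with 12.2, 8.54 and 8.03 FPKM with DMOG and 0.448, 0.777 and 0.444 with vehicle (2.75 ± 0.14), while its receptor gene Cd27 fell, with 27.7, 20.0 and 22.2 FPKM with DMOG and 129.7, 134 and 127 with vehicle (-2.45 ± 0.12). Cytokine receptor and signalling genes gave 9 higher and 6 lower of 20. The receptor chains Il6ra (-2.21 ± 0.15) and Il6st (-1.86 ± 0.14), which bind interleukin-6 together, both fell. The 3 inhibitors of cytokine signalling named by size rose, Socs3 by 1.99 ± 0.14, Cish by 1.94 ± 0.12 and Socs1 by 1.92 ± 0.14. Among 15 chemokine and chemokine receptor genes 7 rose and 6 fell, and besides those already named Ccl22 rose by 3.50 ± 0.19 and Cxcr6 fell by 3.28 ± 0.18.

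Metallothioneins are small proteins that bind zinc and copper, and their genes Mt1 and Mt2 rose. Mt3 reached 0.0758 FPKM in its highest library, Mt4 was listed at 0 in every library, and neither was tested. Of the list of 6 metallothionein and zinc genes 4 were tested, 3 rose and 1 fell (median 2.52). Mt2 had 202, 159 and 142 FPKM with DMOG and 2.47, 1.99 and 1.87 with vehicle (5.75 ± 0.13, adjusted p = 8.32e-16). Mt1 had 260.3, 224 and 213 FPKM with DMOG and 13.6, 8.66 and 8.46 with vehicle (4.40 ± 0.15, adjusted p = 1.31e-13). For both genes the vehicle libraries held a small part of the DMOG level. Mtf1, the factor that senses zinc and turns these genes on, rose by 0.63 ± 0.11, and the zinc exporter gene Slc30a1 fell, with 2.55, 1.42 and 1.67 FPKM with DMOG and 3.35, 4.02 and 3.58 with vehicle (-0.71 ± 0.13). Of 7 iron genes tested, 1 rose and 3 fell, which is near the 60.8% of all genes tested that changed. Tfrc, the transferrin receptor gene, had 274, 193 and 189 FPKM with DMOG and 103, 152 and 139 with vehicle (0.73 ± 0.16, adjusted p = 6.37e-04), Slc11a2, an iron importer gene, fell by 1.12 ± 0.14, and the ferritin gene Fth1 had 197, 191 and 194 with DMOG and 194, 158 and 164 with vehicle, which did not pass (adjusted p = 0.187).

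In the list of ATF4 targets, amino acid transport and synthesis 15 of 20 rose and 3 fell (median 0.73). Atf3, a stress-induced transcription factor gene, had 84.9, 72.0 and 77.7 FPKM with DMOG and 0.218, 0.0864 and 0.210 with vehicle (6.08 ± 0.11, adjusted p = 5.18e-17). Asns, which makes asparagine, had 15.9, 18.7 and 16.8 FPKM with DMOG and 3.63, 3.29 and 3.64 with vehicle (2.00 ± 0.11), and Sesn2, a sensor that restrains growth signalling, had 40.9, 29.5 and 36.1 with DMOG and 6.07, 4.97 and 5.12 with vehicle (2.51 ± 0.13). Ddit3, a death-linked factor of the same response, fell, with 5.67, 4.49 and 5.59 FPKM with DMOG and 13.3, 11.4 and 11.7 with vehicle (-1.07 ± 0.12). Aminoacyl-tRNA synthetases, which load amino acids onto tRNAs, rose in 12 of 12 cases by 0.33 to 0.99 log2 units. In the unfolded protein response 7 of 14 genes rose and 4 fell, 5 rose without DMOG replicate 1, and 4 rose with no filter on low values. Its most changed gene was Eif2ak3, the sensor kinase PERK, with 13.0, 6.78 and 8.13 FPKM with DMOG and 54.0, 65.5 and 59.4 with vehicle (-2.60 ± 0.17, adjusted p = 4.99e-10). Redox genes gave 9 higher and 3 lower of 13, led by thioredoxin, Txn1 (1.28 ± 0.11). Of 8 heat shock genes 7 rose and 0 fell, led by Hsp90aa1 (1.17 ± 0.13).

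Lipid synthesis genes leaned upward. Of 22 cholesterol synthesis genes 11 rose and 5 fell (3 fell without vehicle replicate 2), among them Fdps (1.42 ± 0.11) and Lss (1.32 ± 0.10) upward and Dhcr7 (-0.83 ± 0.14) downward. Of 11 fatty acid genes 6 rose and 1 fell (2 fell without DMOG replicate 1). Scd1, the desaturase that makes oleic acid, had 36.0, 25.5 and 18.5 FPKM with DMOG and 1.16, 0.653 and 0.408 with vehicle (3.96 ± 0.19, adjusted p = 8.53e-12), and Fads2, which makes polyunsaturated fatty acids, had 19.3, 12.7 and 12.1 FPKM with DMOG and 1.61, 2.15 and 2.00 with vehicle (2.40 ± 0.15). Both were fully apart between the groups.

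Cell cycle and growth genes rose by small amounts in many members and by large amounts in few. DNA replication and nucleotide synthesis genes gave 22 of 24 higher and 0 lower, but 1 of them by 1 log2 unit, Cdc6 (1.26 ± 0.11), which loads the replication helicase. Among 30 cell cycle genes 15 rose and 4 fell. Cdkn1a, which encodes the cell cycle inhibitor p21, had 192, 152 and 159.9 FPKM with DMOG and 8.39, 6.93 and 8.00 with vehicle (4.26 ± 0.12, adjusted p = 1.11e-14). The cyclin genes Ccnd2 (1.89 ± 0.12) and Ccnd3 (1.80 ± 0.13) and the kinase gene Cdk6 (2.58 ± 0.12), which the inhibitor acts on, rose as well. Myc had 85.1, 73.4 and 83.7 FPKM with DMOG and 37.1, 31.3 and 35.5 with vehicle (1.20 ± 0.11), and in its list with ribosome biogenesis 16 of 21 rose and 2 fell. Leaving out DMOG replicate 1 or any vehicle replicate left 1 that fell. Mxd4, whose product competes with Myc for its partner, fell, with 12.1, 7.98 and 11.4 FPKM with DMOG and 111, 86.0 and 93.2 with vehicle (-3.10 ± 0.14, adjusted p = 6.36e-12).

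Known targets of p53 did not move together, with 9 of 18 higher and 6 lower. Besides Cdkn1a, Phlda3 rose by 2.07 ± 0.12, while Sesn1 fell, with 7.45, 7.83 and 8.23 FPKM with DMOG and 103, 96.0 and 101 with vehicle (-3.52 ± 0.11, adjusted p = 2.57e-14), and Btg2, which restrains proliferation, fell by 2.25 ± 0.13. The paralogs Sesn1 and Sesn2 thus changed in opposite directions. Among 22 BCL2 family and caspase genes 6 rose and 11 fell. Bcl2l11, which encodes the death activator BIM, had 2.06, 1.35 and 2.13 FPKM with DMOG and 17.1, 15.1 and 14.9 with vehicle (-2.56 ± 0.12, adjusted p = 1.11e-11), and the survival gene Bcl2l1 rose, with 116, 104 and 112 FPKM with DMOG and 39.0, 33.4 and 33.9 with vehicle (1.62 ± 0.11).

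Interferon-stimulated genes rose in 15 of 19 cases and fell in 1, and 14 of the rises reached 1 log2 unit (median 1.43). Gbp2, a guanylate-binding protein gene induced by interferon gamma, had 223, 249 and 298 FPKM with DMOG and 26.1, 27.4 and 32.9 with vehicle (3.11 ± 0.13, adjusted p = 1.47e-12). Irf1, an early factor of the same response, had 154, 136 and 158 FPKM with DMOG and 38.3, 35.5 and 35.6 with vehicle (2.00 ± 0.11), and Irgm1 rose by 2.40 ± 0.12. The gene that fell was Ifit2, named after its values were seen (-0.87 ± 0.11), and 2 fell without DMOG replicate 3. Another 8 members of the list had a mean under 1 FPKM and were not tested. Immediate early, AP-1 and NFAT genes gave 10 higher and 5 lower of 21. Batf3, an AP-1 family factor gene, had 14.9, 17.2 and 13.6 FPKM with DMOG and 0, 0 and 0.0583 with vehicle, 2 of them listed at 0, so its fold change (3.99 ± 0.11) is uncertain. Ier3 rose by 3.67 ± 0.15 and Junb by 2.09 ± 0.12.

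Genes that handle extracellular adenosine and ATP gave 3 higher and 4 lower of 8. Next to the fall of Nt5e, Dpp4 (CD26), a surface peptidase gene, fell, with 4.59, 2.97 and 2.72 FPKM with DMOG and 13.0, 18.7 and 17.8 with vehicle (-1.99 ± 0.16). Ada, the adenosine deaminase gene, rose, with 4.48, 5.33 and 4.75 FPKM with DMOG and 1.65, 1.55 and 2.05 with vehicle (1.09 ± 0.11, adjusted p = 1.62e-07). Of 17 annexin, S100 and galectin genes 9 rose and 5 fell. Anxa3 rose beside Anxa2, with 23.0, 21.9 and 20.8 FPKM with DMOG and 1.33, 1.03 and 1.53 with vehicle (3.32 ± 0.11), while Anxa1 fell (-1.59 ± 0.10). S100a4 fell as well, with 4.58, 3.87 and 4.38 FPKM with DMOG and 38.7, 39.5 and 48.9 with vehicle (-3.03 ± 0.12). Autophagy and lysosome genes gave 3 higher and 8 lower of 13 (median -0.49), such as Ctsl (-1.15 ± 0.15) and Hexa (-1.12 ± 0.13) downward.

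**Figure D3:**
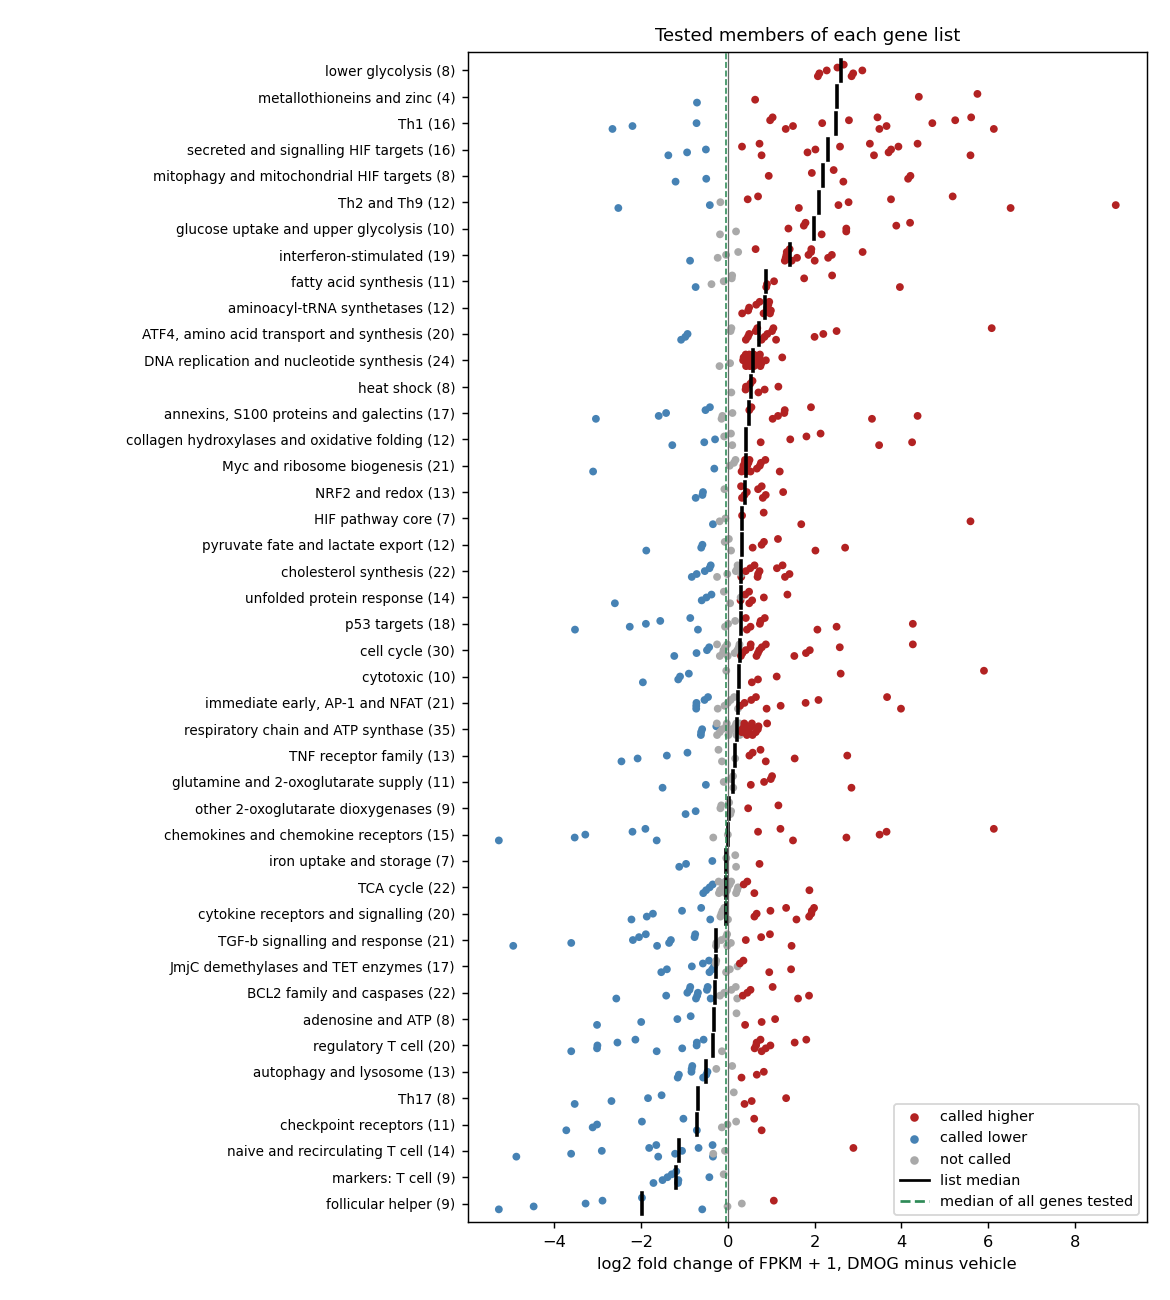
Fold change of FPKM + 1 on the log2 scale (x axis), DMOG minus vehicle, for each tested member of each gene list (y axis), ordered by list median, with the number tested in brackets. Red points rose, blue points fell and grey points did not pass, black bars are list medians, and the dashed line is the median of all genes tested. The lower glycolysis, metallothionein and Th1 lists have the highest medians and the follicular helper, T cell marker and naive T cell lists at the bottom.

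Several of the 15 largest rises and falls lay outside these lists. Ly6a, which encodes the surface antigen Sca-1, had 437, 370.3 and 357 FPKM with DMOG and 1.04, 0.948 and 0.538 with vehicle (7.73 ± 0.13, adjusted p = 2.94e-17), and belongs to a family of similar genes. The transcript AA467197 had 443, 395 and 345 FPKM with DMOG and 2.48, 2.04 and 2.14 with vehicle (6.94 ± 0.12). Il1a, the interleukin-1 alpha gene, had 56.6, 53.2 and 54.9 FPKM with DMOG and 0.403, 0.519 and 0.535 with vehicle (5.23 ± 0.10). All 3 were low in every vehicle library and high in every DMOG library. Iigp1, an interferon-induced GTPase gene with close copies, rose by 4.80 ± 0.14. Among the falls, Cd72, a surface receptor gene best known from B cells, had 1.33, 1.10 and 1.46 FPKM with DMOG and 61.1, 81.8 and 68.6 with vehicle (-4.95 ± 0.12, adjusted p = 2.05e-15). Pik3ip1, a brake on PI3 kinase signalling, had 2.93, 2.31 and 2.36 FPKM with DMOG and 87.7, 96.4 and 92.3 with vehicle (-4.72 ± 0.11). Cd101, a surface immunoglobulin family gene, had 3.54, 2.48 and 3.04 FPKM with DMOG and 105, 133 and 112 with vehicle (-4.87 ± 0.13). These 3 were abundant in every vehicle library and low in every DMOG library. The remaining falls of that rank were Nsg2 (-4.76), the protease gene Capn3 (-4.43), Hsd11b1, which regenerates active glucocorticoid (-4.17), the calmodulin-binding neurogranin gene Nrgn (-4.05), the epoxide hydrolase gene Ephx1 (-4.01), Ms4a4b, which has close copies (-3.94), Smpdl3a (-3.87) and the T cell surface gene Cd7 (-3.85).

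Markers of other cell types were low in both groups, with exceptions that moved with the treatment. The B cell markers summed to 1.06 to 1.46 FPKM in DMOG libraries and to 7.14 to 11.5 FPKM in vehicle libraries, most of it Cd79b, while the defining marker Pax5 was listed at 0 in all DMOG libraries and reached 0.0223 FPKM in the highest vehicle library. The 4 measured myeloid markers summed to 0.119 to 0.344 FPKM with DMOG and to 6.65 to 7.13 FPKM with vehicle. The vehicle sum was nearly all the integrin gene Itgam, with 0.00872, 0.0226 and 0.0142 FPKM with DMOG and 6.59, 7.07 and 6.87 with vehicle, while the defining marker Csf1r was listed at 0 in every DMOG library and reached 0.0139 FPKM in the highest vehicle library. Of 8 dendritic cell markers measured 4 were tested and 4 rose, with list sums of 237 to 356 FPKM in DMOG libraries and 95.0 to 116 FPKM in vehicle libraries. The abundant one was Cd74, the invariant chain of MHC class II, with 296, 180.4 and 198 FPKM with DMOG and 109, 110.4 and 92.8 with vehicle (1.07 ± 0.15). H2-Ab1, a chain of MHC class II, had 42.0, 37.4 and 34.9 FPKM with DMOG and 1.83, 3.00 and 1.15 with vehicle (3.75 ± 0.17), but its partner chain H2-Aa had 0.420, 0.297 and 0.248 with DMOG and 1.23, 2.18 and 0.621 with vehicle and was not tested. The dendritic cell factor gene Zbtb46 had 2.32, 1.56 and 2.10 FPKM with DMOG and 0.266, 0.285 and 0.182 with vehicle (1.26 ± 0.11, adjusted p = 2.24e-08), and the fourth that rose was Batf3, whose values are given above with the AP-1 genes. Zbtb46 and Batf3 were tested through their DMOG values alone and could not have come out lower. H2-Aa and Xcr1, lower in every DMOG library, were too low to be tested. The surface markers Itgax, Flt3 and Xcr1 had at most 0.0456, 0.0453 and 0.0779 FPKM in any DMOG library and at most 0.0707, 0.0467 and 0.284 in any vehicle library. Cd8a had 3.43, 2.34 and 2.87 FPKM with DMOG and 0.391, 0.821 and 0.686 with vehicle (1.25 ± 0.12), and Cd8b1 had 7.42, 4.52 and 5.19 with DMOG and 5.93, 7.67 and 6.49 with vehicle, which did not pass (adjusted p = 0.202) but passed as lower without DMOG replicate 1 (-0.39, adjusted p = 0.00435). Of the NK cell markers Klrk1 was listed at 0 with vehicle and had 1.74, 1.43 and 1.49 FPKM with DMOG, and the 4 measured markers summed to 1.91 to 2.37 FPKM with DMOG and 0.306 to 0.576 with vehicle. Pecam1, listed as an endothelial marker, was not low with vehicle. It had 3.20, 1.945 and 2.79 FPKM with DMOG and 45.7, 52.8 and 48.9 with vehicle (-3.79 ± 0.13). Col1a1 and Col1a2 reached 0.0347 and 0.0193 FPKM in the highest DMOG library and 0.0344 and 0.204 in the highest vehicle library. Epcam had 8.09, 5.30 and 5.30 FPKM with DMOG and 3.42, 5.73 and 5.02 with vehicle and did not pass (adjusted p = 0.0772). Measured markers of erythroid cells, platelets and gamma-delta or NKT cells were near 0 in all 6 libraries. Xist, which is made in female cells, had 4.85, 2.87 and 3.98 FPKM with DMOG and 7.19, 5.51 and 7.18 with vehicle (-0.65 ± 0.14), and the Y-linked Eif2s3y was at or near 0 in all 6. The part of other cell types in the results on MHC class II, Itgam, Pecam1 and CD8 genes was not tested.

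In the tKO experiment, cells without the 3 PHD proteins were compared with WT cells at the same 2 ng/ml TGF-b, in a table normalized separately, so the values are set side by side with no test between them. Of 10354 genes tested there, 810 (7.82%) were called higher and 845 (8.16%) lower in tKO. Over the 9192 genes tested in both tables, 572 rose in both, which is 22.6% of the genes that rose with DMOG (7.71% of all 9192 rose in tKO) and 80.7% of those that rose in tKO (27.6% of all 9192 rose with DMOG). Another 506 fell in both, which is 16.8% of the DMOG falls (8.34% of all fell in tKO) and 66.0% of the tKO falls (32.8% of all fell with DMOG). In addition 38 genes rose with DMOG and fell in tKO, and 28 fell with DMOG and rose in tKO. Pearson's r of the fold changes was 0.638 across these 9192 genes, a description over genes that are not independent. Of the 1261 genes that DMOG changed by at least 1 log2 unit, 587 were called the same way in tKO, 9 the opposite way and 665 were not called. Leaving out 1 of the 4 libraries gave between 725 and 1077 tKO calls in place of 1655, and a gene not called in tKO is not thereby shown to be unchanged. The 2 tKO libraries also differ in sex-linked transcripts: Eif2s3y was at 42.0 and 0 FPKM in the tKO and at 0 and 0 in the WT libraries, and Xist was at 0.0531 and 5.16 in the tKO and at 3.47 and 4.30 in the WT libraries.

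Of the HIF target and Th1 lists most genes were called higher in tKO, though not all. In tKO 11 of 15 secreted and signalling HIF targets, 6 of 8 mitochondrial ones and 10 of 16 Th1 genes were called higher, beside 13 of 16, 6 of 8 and 13 of 16 with DMOG, and 7.71% of all 9192 genes were called higher in tKO. Il2 was not called in tKO (1.16 ± 0.55). In tKO the fold changes were 2.53 ± 0.23 for Egln3, 4.64 ± 0.17 for Bnip3, 3.02 ± 0.26 for Hk2 and 3.99 ± 0.17 for Anxa2, beside 5.59 ± 0.12, 4.15 ± 0.11, 4.20 ± 0.11 and 4.37 ± 0.11 with DMOG. Egln3, also counted in the secreted list, encodes a PHD protein that tKO cells lack. Its tKO value is thus that of a targeted gene and not a plain reading of a HIF target. All 8 lower glycolysis genes tested in both tables and 9 of 10 upper glycolysis genes were called higher in tKO. Tbx21 had 28.4 and 15.6 FPKM in the 2 tKO libraries and was listed at 0 in both WT libraries (adjusted p = 2.98e-05). Ifng was at 32.6 and 2.30 FPKM in the tKO and at 0.0695 and 0 in the WT libraries (3.35 ± 0.77, adjusted p = 0.00976), so the tKO libraries differed widely. Il9 (5.40 ± 0.56), Gzmb (3.19 ± 0.55), Ccl3 (3.21 ± 0.41), Mt2 (3.73 ± 0.48) and Atf3 (4.37 ± 0.50) were called higher there too. On the low side Sox4 (-3.25 ± 0.30), Cxcr5 (-2.21 ± 0.34), Pik3ip1 (-2.90 ± 0.26), Klf2 (-1.88 ± 0.24) and Sesn1 (-2.12 ± 0.23) were called lower in tKO as with DMOG.

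Gata3 and P2rx7, the gene of an ATP receptor, fell with DMOG and were called higher in tKO. The DMOG call of Gata3 was not kept under every alternative. P2rx7 entered the DMOG test through its vehicle values alone and could not have come out higher there. For Gata3 the tKO libraries gave 66.2 and 72.0 FPKM and the WT libraries 28.8 and 31.9 (1.16 ± 0.18, adjusted p = 8.65e-04). P2rx7 had 0.481, 0.268 and 0.195 FPKM with DMOG and 2.23, 1.78 and 1.78 with vehicle (-1.16 ± 0.11), and 3.08 and 5.25 in the tKO and 0.644 and 0.323 in the WT libraries (1.78 ± 0.34, adjusted p = 0.00344). Several other genes that fell far with DMOG were not called in tKO. For Foxp3 the tKO libraries gave 86.7 and 142 FPKM and the WT libraries 120.3 and 168 (-0.36 ± 0.28, adjusted p = 0.434), beside -3.00 ± 0.15 with DMOG. Itgae gave 57.8 and 48.7 FPKM for tKO and 39.8 and 66.9 for WT (0.04 ± 0.36, adjusted p = 0.961), and Nt5e gave 278 and 272 for tKO and 269.8 and 357 for WT (-0.17 ± 0.34, adjusted p = 0.774). For Foxp3, Itgae and Nt5e the ranges of the tKO and WT values overlapped. Tgfbr1 (0.06 ± 0.33), Tgfbr2 (-0.41 ± 0.30), Nrp1 (0.47 ± 0.20), Ccr6 (-0.07 ± 0.35) and Cd160 (0.19 ± 0.43) were likewise not called in tKO. Among the regulatory T cell genes tested in each experiment 6 of 18 were called higher and 0 lower in tKO, against 9 higher and 10 lower of 20 with DMOG. Of 34 respiratory chain genes tested in both 0 were called higher and 11 lower (median -0.52), against 14 higher and 4 lower of 35 with DMOG. The aminoacyl-tRNA synthetases, all higher with DMOG, had 2 of 11 called higher in tKO, and DNA replication genes 1 of 23. The shares over all 9192 genes in tKO were 7.71% for higher and 8.34% for lower calls. Whether any of these fold changes differs between DMOG and loss of the PHD proteins was not tested.

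**Figure D4:**
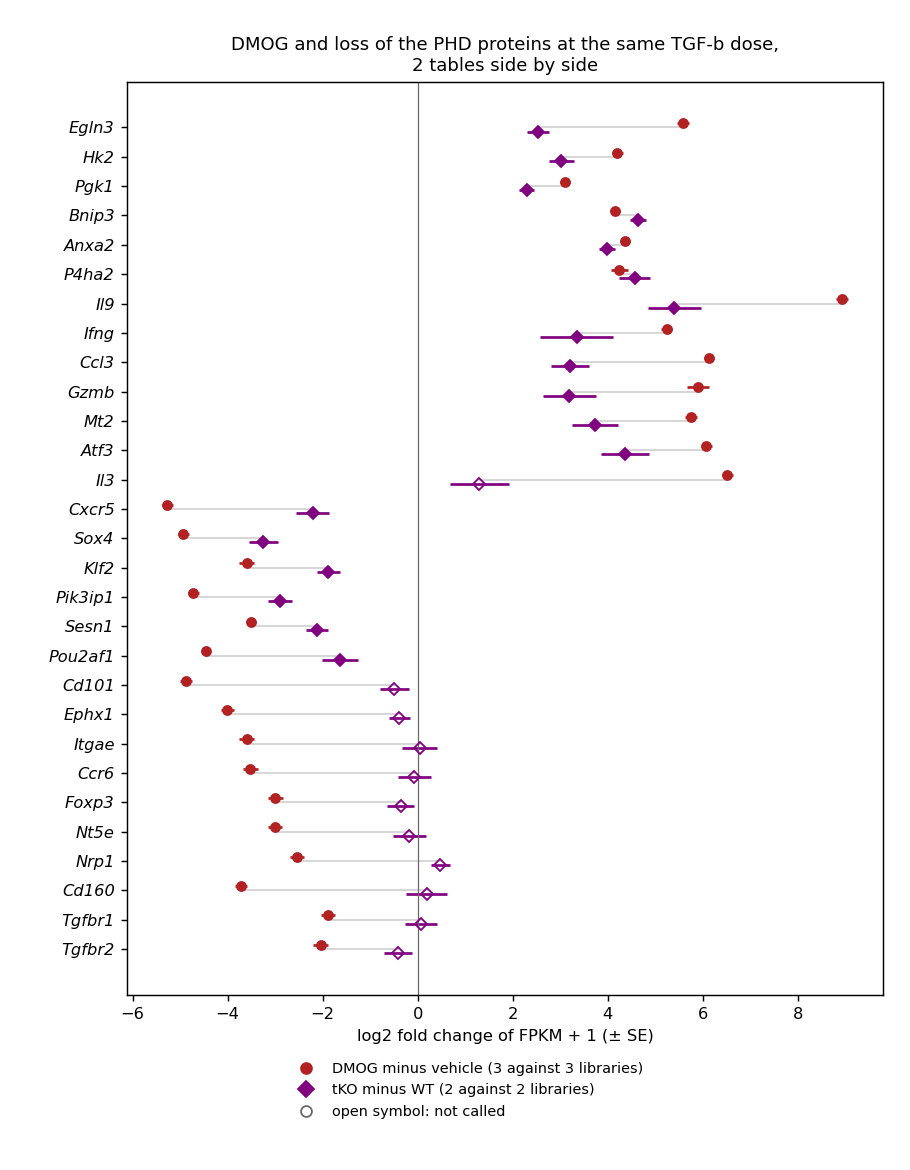
Fold change of FPKM + 1 on the log2 scale (x axis) with its SE for each named gene (y axis), DMOG minus vehicle as red circles and tKO minus WT at 2 ng/ml TGF-b as purple diamonds, with open symbols for genes that were not called. From Egln3 down to Atf3 the points lie right of 0 in both, Il3 is open in tKO, and from Cxcr5 down to Pou2af1 they lie left of 0 in both. Egln3 is itself among the genes targeted in tKO. From Cd101 down to Tgfbr2 the DMOG points lie left, while the tKO points are open and lie between -0.50 (Cd101) and 0.47 (Nrp1).

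DMOG replicate 1 stood apart from the other 2 DMOG libraries for some gene groups. Over all genes tested its log2 value was 0.03 above the mean of DMOG replicates 2 and 3 in the median. For collagen hydroxylases and oxidative folding this median was 0.55, with 12 of 12 genes above 0. It was 0.51 for the TNF receptor family (13 of 13 genes above 0), 0.52 for cytokine receptors and signalling (19 of 20) and 0.41 for the unfolded protein response (14 of 14). The regulatory T cell list had 0.44 and the T cell markers 0.43. It was below 0 for aminoacyl-tRNA synthetases (-0.23, 0 of 12 above 0) and Myc and ribosome biogenesis (-0.27). Vehicle replicate 1 showed medians of -0.27 for collagen and folding genes and -0.21 for the TNF receptor family.

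Without DMOG replicate 1, 6297 genes were called, 2776 higher and 3521 lower. Regulatory T cell genes then gave 8 higher and 10 lower, TGF-b genes 4 higher and 11 lower, Th1 genes 13 higher and 3 lower, and lower glycolysis 8 higher and 0 lower. The TNF receptor family gave 6 higher and 6 lower, and the unfolded protein response 5 higher and 4 lower. What set this library apart was not tested.

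**Figure D5:**
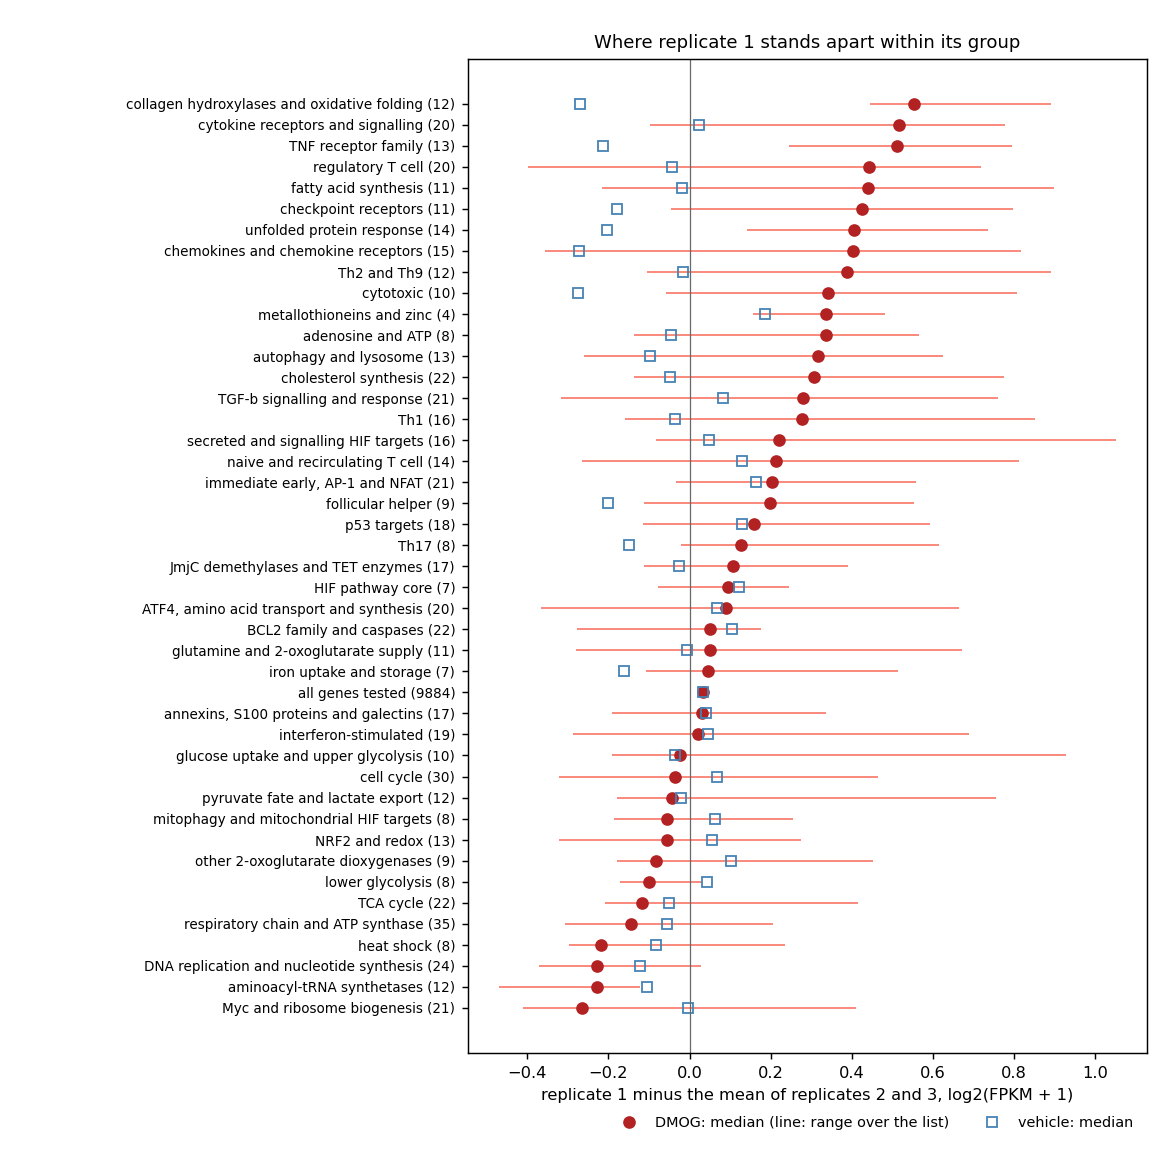
Median over each gene list (y axis) of replicate 1 minus the mean of replicates 2 and 3 on the log2(FPKM + 1) scale (x axis), for DMOG as filled circles with a line for the range over the list and for vehicle as open squares, with the number of genes in brackets. Collagen and folding, cytokine receptor and TNF receptor lists lie farthest right for DMOG, where all genes tested lie at 0.03, and Myc, synthetase and replication lists lie left of 0.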

How the data were processed

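RNA was extracted with RNeasy and libraries were made with the SMARTer ultra low input kit, which does not mark strand, per the labels' protocols. The authors deposited FPKM values per transcript entry, 1 table per experiment; Cuffdiff, Cufflinks, TopHat and Trimmomatic and the build mm9 appear in the submitters' processing notes, without versions or roles, and the number of reads behind each value is unknown. Distinct entries of a symbol were summed to 16639 symbols, and 9884 that averaged 1 FPKM or more across the 6 samples were tested as log2(FPKM + 1) with limma 3.58.1 (moderated test with mean-variance trend, R 4.3.3, Benjamini-Hochberg adjustment, threshold 0.05). The tKO and WT experiment was fitted in its own table over its 12 libraries. Named genes are the 15 largest rises and falls, genes at 0 in all libraries of a group and the leading members of each list; a few genes that this rule names are not reported here. The members and lists were chosen with earlier results of these data known. Near-identical gene copies, overlapping genes and antisense genes may share reads. Alternatives changed the pseudocount, filter, scaling, entry per symbol, trend, replicate block and libraries.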

Additional observations from a re-analysis of the deposited data

How the results depend on the processing

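The number of genes that DMOG changed (6014, with 2735 higher and 3279 lower) stayed within 1.5 times under pseudocounts of 0.1 and 0.5 FPKM, no filter, quantile or median scaling, the highest entry per symbol and no trend, except that 2165 were lower among genes that averaged 5 FPKM or more, where fewer genes are tested. Leaving out 1 library gave 5270 to 6297, with 2261 to 2791 higher and 2730 to 3521 lower. The tKO calls fell to 725 to 1077 when 1 library was left out, with 400 to 656 higher and 275 to 421 lower, and the cause was not tested. The deviations of same-numbered DMOG and vehicle libraries correlated at -0.142, -0.194 and 0.443, and those of differently numbered ones at -0.484 to 0.458. With 3 libraries per group these values cannot show whether replicate numbers pair the samples. With a replicate block 6257 genes were called for DMOG and 1946 for tKO.

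Of the 191 named genes that were called, 187 kept direction and call under every alternative that tested them. The other 4 are Arnt, Gata3, Pfkfb3 and Vhl. Named genes that averaged under 5 FPKM, Il10 and Prf1 among them, were not tested under the filter at 5 FPKM. Gata3 also lost its call with no filter on low values (adjusted p = 0.0636). Among genes not called, Tgfb1 was -0.12 with quantile normalization, -0.011 without vehicle replicate 3, and between -0.11 without DMOG replicate 1 and 0.19 without DMOG replicate 2, and Fth1 was -0.092 with quantile normalization. Pfkm passed as higher with quantile normalization, median scaling and the replicate block, and Epcam with both scalings and without DMOG replicate 2 or 3. No setting moved the median of all genes by 0.1.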
